A study of Mus musculus with 6 samples.

Results

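The transcripts of the mouse mitochondrial genome were followed in heart tissue. The members were all genes whose symbol starts with mt-, and there were 35 of them among 49315 genes in the count table: 13 protein-coding genes and 22 transfer RNA (tRNA) genes. The ribosomal RNA genes mt-Rnr1 and mt-Rnr2 were not analysed here. RNA came from mid-ventricular tissue of adult mice, 3 labelled wild-type (WT) and 3 labelled TET2KO, a knockout of TET2 restricted to endothelial cells. All 6 mice, the WT controls included, had received Angiotensin II, a hormone that raises blood pressure, at 1.0 mg/kg/day from osmotic minipumps for 28 days, so no untreated heart enters any comparison. For the knockout, the Cre driver was not given in the sources used here. Libraries were selected for poly(A) RNA and sequenced as pairs of 150-nt reads. The tissue is a mixture of cells, in which fewer cells of a type and less RNA per cell cannot be told apart.

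The mitochondrial genome is a small circle that is present in many copies per cell. Both of its strands are transcribed, by the RNA polymerase Polrmt, into long precursor RNAs, and tRNAs that lie between most of the other genes are cut out to release the messenger RNAs. Its coding genes all specify subunits of the respiratory chain or of ATP synthase, and nuclear genes supply the other subunits of the same complexes. Heart muscle is among the tissues richest in mitochondria. Pieces of mitochondrial DNA have also been copied into nuclear chromosomes during evolution, where they are annotated as pseudogenes.

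Library totals ranged from 22124844 to 30418909 reads, and all 6 libraries carried the same batch label. The targeted gene was higher in the libraries labelled TET2KO. Tet2 was at 4.27, 4.33 and 3.08 CPM (reads relative to the scaled library size) in the WT libraries and at 14.6, 8.0 and 10.3 CPM in the TET2KO libraries. The knockout is restricted to endothelial cells and the counts cover the whole tissue, so they cannot check it. The groups are called by their labels throughout. Markers of cardiomyocytes, the muscle cells of the heart, were present, with 0 of 20 at 0, and their summed level was 157751 ± 15446 CPM (SD, n = 3) in the libraries labelled WT and 102986 ± 6969 CPM (SD, n = 3) in those labelled TET2KO. Of these 20 markers, 8 rose and 9 fell, against 33.4% higher and 29.4% lower over all genes tested. The summed level of 7 erythroid transcripts ranged from 1553 to 7031 CPM in WT and from 165 to 740 CPM in TET2KO. Fold changes also followed transcript length across all genes tested, with a median log2 fold change of -1.29 in the shortest 10% of genes and 1.38 in the longest 10%. The part of the cell markers in the results was not tested. For transcript length and GC content, values with their trend across genes removed are printed where the call of a member changed with them.

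Stretches of 4 coding members are shown beside the annotated nuclear gene that resembles each most closely in that stretch, because the number of reads assigned to a member differed widely with such copies. Positions are in GRCm38 from the GENCODE M21 annotation, sequences are 60 bases long and run 5′ to 3′ along the gene, and capitals mark bases that differ between member and copy. The first 3 copies lie on chromosome 1 and the last on chromosome 2, all on the minus strand.
mt-Co2, chrM:7323-7382: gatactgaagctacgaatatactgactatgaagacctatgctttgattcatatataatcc
Gm28661, the same stretch: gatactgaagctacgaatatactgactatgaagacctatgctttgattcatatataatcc
mt-Nd3, chrM:9459-9518: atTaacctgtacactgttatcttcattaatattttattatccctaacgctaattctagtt
Gm28438, the same stretch: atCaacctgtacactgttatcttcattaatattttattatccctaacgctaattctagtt
mt-Co1, chrM:6390-6449: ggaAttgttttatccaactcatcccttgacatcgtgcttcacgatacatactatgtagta
Gm29216, the same stretch: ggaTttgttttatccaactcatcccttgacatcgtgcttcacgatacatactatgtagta
mt-Nd2, chrM:4462-4521: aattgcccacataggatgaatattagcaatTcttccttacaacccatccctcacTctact
Gm13339, the same stretch: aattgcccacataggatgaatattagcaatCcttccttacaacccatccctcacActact
Over the whole alignments, mt-Co2 and Gm28661 differed at 0 of 681 bases, mt-Nd3 and Gm28438 at 1 of 345, mt-Co1 and Gm29216 at 1 of 483, and mt-Nd2 and Gm13339 at 17 of 510.

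Nuclear copies with at least 95% identity over at least 100 bases numbered 11. Gm13339 (of mt-Nd2), Gm13340 (of mt-Co1) and Gm13341 (of mt-Co2) lay on chromosome 2, and Gm4076 (of mt-Nd5) on chromosome 13. Gm13340 matched all 1545 bases of mt-Co1 at 97.6% identity, and Gm4076 matched 954 bases of mt-Nd5 at 95.2%. The other copies formed one run on chromosome 1. The 7 pseudogenes Gm29216, Gm28661, Gm10925, Gm28437, Gm28438, Gm10222 and Gm28439, at chr1:24611535-24616197 on the minus strand, followed the order of the mitochondrial genes and kept their spacing to within 1 base over 4653 bases of mitochondrial DNA, chrM:6390-11042. Of the 35 members, 11 lay inside that stretch, 2 lay partly in it (mt-Co1 and mt-Nd4) and 22 lay outside. The 6 coding members inside were mt-Co2, mt-Atp8, mt-Atp6, mt-Co3, mt-Nd3 and mt-Nd4l. A read of 150 bases drawn from mt-Co2 would match a nuclear transcript exactly at 99.4% of its positions, and the share was 99.8% for mt-Co3, 97.0% for mt-Nd3, 98.0% for mt-Nd4l, 59.2% for mt-Nd4 and 23.6% for mt-Co1. At 0% of positions did this hold for mt-Nd1, mt-Nd2, mt-Nd5, mt-Nd6 or mt-Cytb. The gaps between the pseudogenes, where copies of most of mt-Atp8 and of the tRNA genes would lie, were not compared, since no genome sequence was used here.

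Reads per kilobase of gene, averaged over the 6 libraries, separated coding members by that position. The 5 coding members outside the stretch ranged from 143467 to 429081 reads per kb, and the 6 inside from 347 to 7720. The lowest value outside was 18.6 times the highest inside. Of the 2 that lie partly in the stretch, mt-Co1 had 1247999.8 reads per kb, the highest value among the members, and mt-Nd4 had 109001. The counting of reads that align equally well to 2 places was not given in the sources used here. Levels and fold changes of the 6 inner members and of mt-Nd4 are therefore uncertain, and the part of the copies in the low values was not tested. The same holds to a smaller extent for mt-Co1, with 23.6% of its positions copied exactly. Read counts of mt-Co2 were 193, 217 and 190 in WT and 552, 359 and 325 in TET2KO, while those of its nuclear copy Gm28661 were 294, 293 and 271 in WT and 424, 381 and 381 in TET2KO. These were of the same order, as were mt-Atp6 (120 to 535 reads) and Gm10925 (205 to 426), and mt-Co3 (815 to 962) and Gm28437 (349 to 878). Other members held far more reads than their copy. These were mt-Nd3 (2123 to 3578, Gm28438 53 to 83) and mt-Nd4l (283 to 570, Gm10222 5 to 52). They also included mt-Nd4 (62742 to 316008, Gm28439 35 to 221) and mt-Co1 (1425367 to 2319126, Gm29216 203 to 264). mt-Nd2, without an exact copy, held 97138 to 443712 reads.

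**Figure D1:**
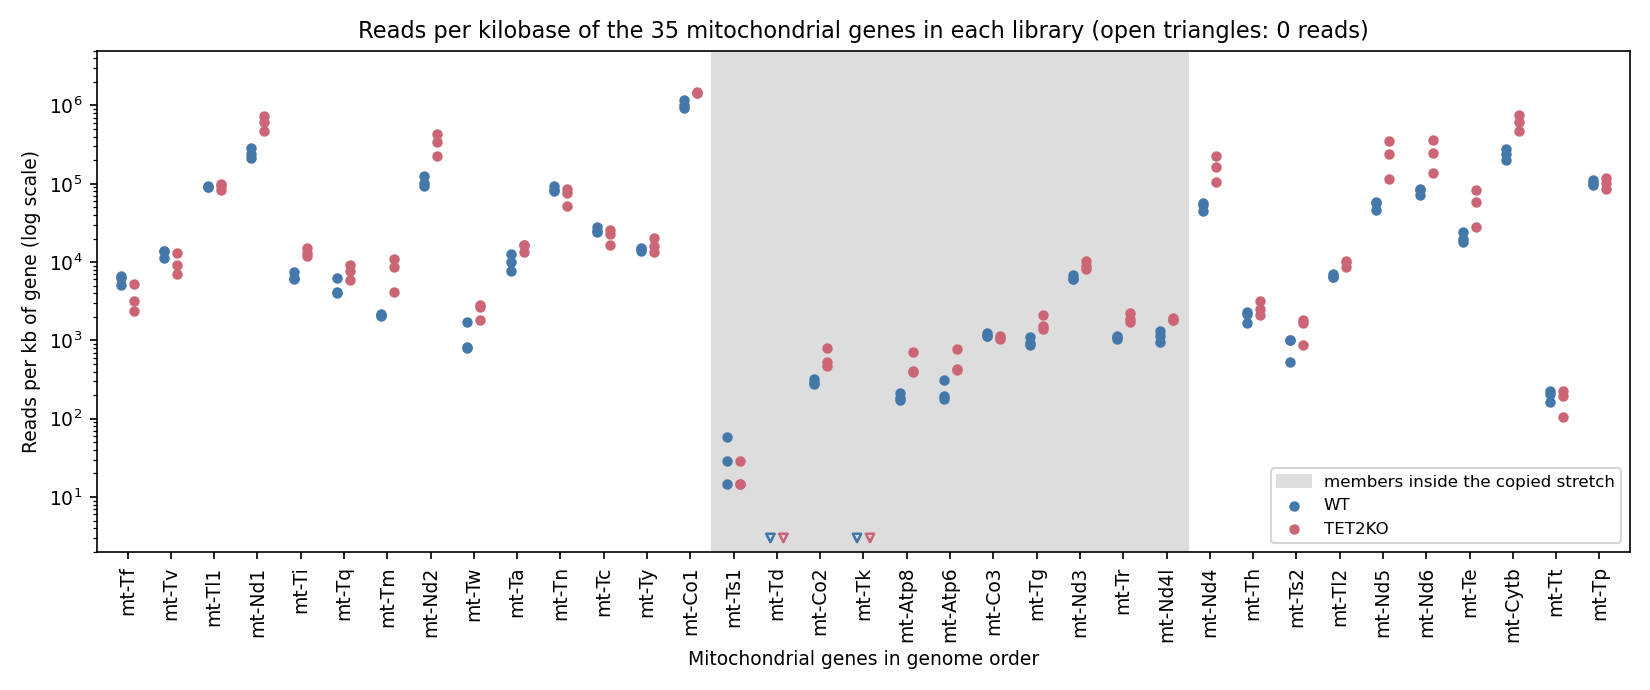
Reads per kilobase of gene (log scale) for the 35 mitochondrial genes in genome order, with 1 point per library, WT in blue and TET2KO in red; the grey band holds the 11 members inside the copied stretch, and open triangles mark 0 reads. Coding members in the band reach at most 10282 reads per kb in any library, while those wholly outside the copied stretch lie at 45726 or more.

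Transfer RNA genes are 59 to 75 nt long, shorter than 1 read, and their counts were low. They ranged from 0 to 102664 reads per kb. mt-Td and mt-Tk had 0 reads in all 6 libraries, which allows up to 0.136 CPM, unscaled, in the smallest library and 0.0986 in the largest. mt-Ts1 had 1 to 4 reads. These 3 members, all inside the copied stretch, did not pass the filter on low counts, and the other 32 were tested.

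The mitochondrial genome supplied a larger part of the reads in the libraries labelled TET2KO. Its reads made up 10.1%, 10.5% and 9.83% of the WT libraries and 18.1%, 14.5% and 17.1% of the TET2KO libraries. The groups did not overlap, and TET2KO replicate 2 lay nearest to WT. The means were 10.1% ± 0.337 (SD, n = 3) and 16.6% ± 1.85 (SD, n = 3), a ratio of 1.63 (two-sided exact permutation test, p = 0.1, the smallest p that 3 against 3 libraries allow). Most of that difference came from members other than mt-Co1, the catalytic core of complex IV and the most abundant member. mt-Co1 alone held 6.59% ± 0.178 of library reads in WT and 7.98% ± 0.321 in TET2KO (SD, n = 3 each), while the remaining members held 3.56% ± 0.165 and 8.58% ± 2.14 (SD, n = 3 each), a ratio of 2.41. In the deposited TPM values, which divide by transcript length, the mitochondrial part was 16.7% ± 0.402 in WT and 30.7% ± 4.87 in TET2KO (SD, n = 3 each). Counting error was small beside these spreads, since the widest 95% Wilson interval on a library's mitochondrial percentage was ± 0.0141 points.

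Within the mitochondrial reads, the share of complex IV was lower and the shares of complexes I and III were higher in the libraries labelled TET2KO. Complex I as a whole carries electrons from NADH into the chain. Its mitochondrial members held 23.1%, 22.8% and 22.5% of mitochondrial reads in WT and 41.5%, 28.6% and 37.0% in TET2KO. For mt-Cytb, the single mitochondrial subunit of complex III, the values were 11.1%, 11.6% and 10.5% in WT and 15.9%, 13.8% and 14.9% in TET2KO. Complex IV members, nearly all of it mt-Co1, held 64.7%, 64.7% and 65.6% in WT and 42.1%, 56.8% and 47.4% in TET2KO. None of these 3 pairs of groups overlapped, and TET2KO replicate 2 was the nearest to WT in each. Each difference had p = 0.1 in the two-sided exact permutation test and 0.129 after Benjamini-Hochberg adjustment over the 9 classes compared, so none passed a threshold of 0.05, which the design cannot reach. Shares add to 100%, so they do not vary independently.

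**Figure D2:**
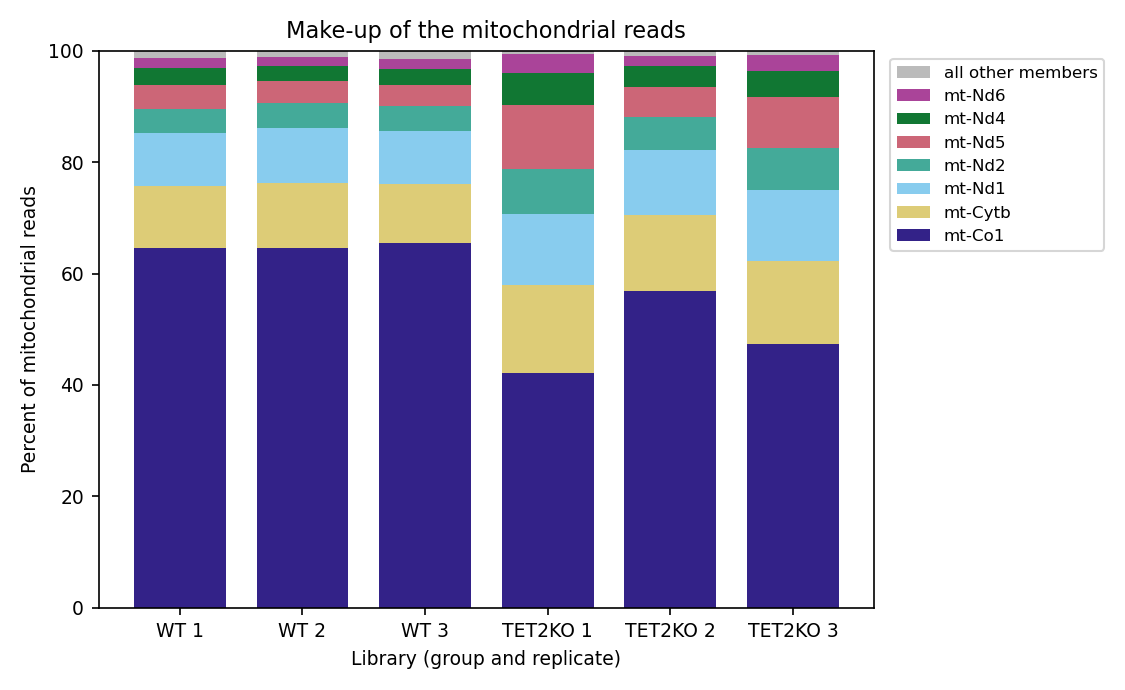
Make-up of the mitochondrial reads in each of the 6 libraries, as stacked bars in percent of mitochondrial reads, with the 7 most abundant members named and all others in grey. The mt-Co1 segment spans 64.6 to 65.5% in WT and 42.1 to 56.8% in TET2KO, and the mt-Nd5 segment 3.83 to 4.25% in WT and 5.39 to 11.5% in TET2KO.

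Other classes were small. Transfer RNAs held 1.14% ± 0.189 of mitochondrial reads in WT and 0.668% ± 0.135 in TET2KO (SD, n = 3 each), without overlap. The tRNAs that flank the ribosomal RNA genes (mt-Tf, mt-Tv and mt-Tl1) held 0.336% ± 0.0450 and 0.173% ± 0.0478, also without overlap. Both had an adjusted exact permutation p of 0.129. The 9 genes of the minus strand, mt-Nd6 and 8 tRNAs, held 2.44% ± 0.246 in WT and 3.09% ± 0.699 in TET2KO, and these groups overlapped (exact permutation p = 0.3). On TPM values the difference of the minus-strand genes took the other sign, at -2.54 percentage points. ATP synthase members, both inside the copied stretch, held 0.00775% ± 0.00123 and 0.00995% ± 0.00227, with overlap. Of the 33 members with any reads, 8 had a higher and 12 a lower share in TET2KO without overlap of the groups, and the smallest adjusted exact permutation p over the 33 was 0.165. Over all genes tested, CPM values, a different measure, did not overlap between the groups in 73.5%.

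mt-Nd5 had the largest ratio of shares between the groups among the coding members. This subunit of the proton-pumping arm of complex I held 4.25%, 3.83% and 3.84% of mitochondrial reads in WT and 11.5%, 5.39% and 9.21% in TET2KO, a ratio of means of 2.19. Per 100 reads of mt-Co1 in the same library, a measure that needs no scaling between libraries, mt-Nd5 had 6.58, 5.92 and 5.85 reads in WT and 27.3, 9.49 and 19.4 in TET2KO, 3.06 times as many on average. The same ratio of TET2KO to WT was 2.19 for mt-Nd2, 2.24 for mt-Nd4, 2.18 for mt-Nd6, 1.82 for mt-Cytb and 1.75 for mt-Nd1. In all 6 ratios the groups did not overlap (exact permutation p = 0.1 each).

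Tested across all genes with edgeR's quasi-likelihood test, with library sizes scaled by TMM, 15 of the 32 tested members (46.9%) passed an adjusted p of 0.05. Over all 14370 genes tested the share was 62.9%. Of the members 8 rose and 7 fell, or 25% and 21.9%, against 33.4% and 29.4% of all genes. The median log2 fold change was 0.09 over the members and 0.05 over all genes tested. CPM values did not overlap between the groups in 16 of the 32 members (50%), against 73.5% of all genes. The split followed the kind of RNA: 7 coding members rose, 1 fell and 5 did not pass, whereas 1 tRNA rose, 6 fell and 12 did not pass. All 5 coding members outside the copied stretch rose. These counts depended on single libraries: without WT replicate 1 there were 2 higher and 3 lower, without WT replicate 2 there were 2 and 6, without WT replicate 3 there were 3 and 1, without TET2KO replicate 3 there were 3 and 2, and 2 of the 15 members, mt-Nd5 and mt-Co3, passed in the same direction whichever library was left out. In the same order, the share of all genes called fell to 42.9%, 46.7%, 41.2% and 41.8%. Without TET2KO replicate 2 all 15 calls of members were kept. The counts of members depended on scaling too, with 13 higher and 1 lower when libraries were scaled to their total reads, and 16 higher and 2 lower after the length and GC trend was removed. Over all genes, these fits called 61.3% and 46.2%.

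**Figure D3:**
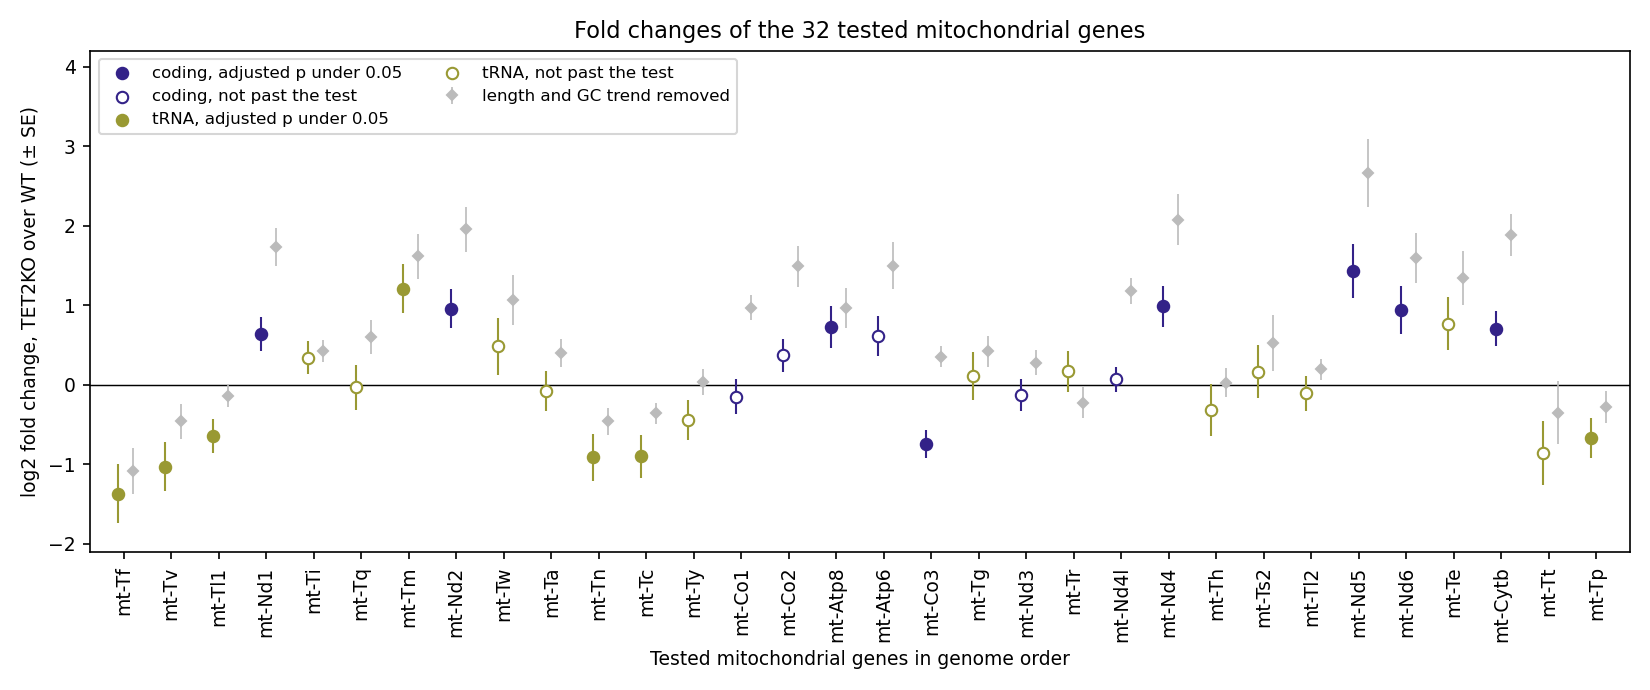
Log2 fold change, TET2KO over WT, with its SE for the 32 tested members in genome order: filled circles passed an adjusted p of 0.05, open circles did not, and grey diamonds show the values with the length and GC trend removed. Coding members outside the copied stretch lie between 0.64 and 1.43, and the tRNAs beside the ribosomal RNA genes between -1.37 and -0.64.

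Complex I is the entry point of electrons from NADH, and 7 of its subunits are mitochondrial. mt-Nd5 was at 5014, 4360 and 4666 CPM in WT and at 17079, 6991 and 13705 CPM in TET2KO. Every TET2KO library was above every WT library, with replicate 2 well below the other two. Its log2 fold change was 1.43 ± 0.34 (SE; edgeR adjusted p = 0.0095), and it passed the test under all 17 alternatives tried. mt-Nd2, a core subunit of the membrane arm, was at 5163, 5265 and 5434 CPM in WT and at 11960, 7736 and 11131 CPM in TET2KO, a log2 fold change of 0.96 ± 0.24 (SE). mt-Nd4, also of the membrane arm, was at 3595, 3224 and 3510 CPM in WT and at 8518, 4796 and 7127 CPM in TET2KO, a log2 fold change of 0.98 ± 0.26 (SE). Both showed no overlap and the same order of TET2KO libraries. mt-Nd2 did not pass without WT replicate 1, and mt-Nd4 did not pass without any one of the WT replicates or without TET2KO replicate 3.

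mt-Nd1, which lies where the arms of complex I meet, was at 11132, 11248 and 11571 CPM in WT and at 18915, 15032 and 18926 CPM in TET2KO. The WT libraries lay close together, and the log2 fold change was 0.64 ± 0.22 (SE; edgeR adjusted p = 0.032). mt-Nd6, the only coding gene of the minus strand, was at 2142, 1771 and 2096 CPM in WT and at 5039, 2380 and 4097 CPM in TET2KO, a log2 fold change of 0.94 ± 0.30 (SE; edgeR adjusted p = 0.027). Its lowest TET2KO library stood little above its highest WT library. In human cells the messenger of this gene is known to lack a poly(A) tail, and these libraries were selected for poly(A). The counting's strand setting was not given in the sources used here. mt-Nd6 shares 14 bases with mt-Nd5. The inner members did not pass: mt-Nd3 was at 102, 97.8 and 119 CPM in WT and at 76.0, 102 and 114 CPM in TET2KO (log2 fold change -0.13 ± 0.20, SE), and mt-Nd4l was at 16.1, 16.2 and 15.8 CPM in WT and at 15.4, 18.2 and 16.9 CPM in TET2KO (0.07 ± 0.16, SE). Both pairs of groups overlapped. mt-Nd3 turned to 0.49 on log2(TPM + 1), and with the length and GC trend removed mt-Nd4l passed as higher, at 1.18. mt-Nd1 and mt-Nd6 did not pass when WT replicate 1, 2 or 3 or TET2KO replicate 3 was left out.

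Complex III passes electrons on to cytochrome c, and mt-Cytb is its cytochrome b. Its level was 13102, 13177 and 12823 CPM in WT and reached 23603, 17851 and 22139 CPM in TET2KO. The groups were clearly separated, and the log2 fold change was 0.70 ± 0.22 (SE; edgeR adjusted p = 0.025). Without WT replicates 1, 2 or 3 in turn, or without TET2KO replicate 3, mt-Cytb did not pass.

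Complex IV reduces oxygen, and its 3 mitochondrial subunits form its core. mt-Co1 was at 76154, 73640 and 79737 CPM in WT and at 62510, 73656 and 70530 CPM in TET2KO. One TET2KO library reached the lowest WT library, and the log2 fold change was -0.15 ± 0.22 (SE; edgeR adjusted p = 0.56), turning to 0.28 when libraries were scaled to their totals, to 0.48 on log2(TPM + 1) and to 0.97 with the length and GC trend removed. mt-Co2, a subunit that receives electrons from cytochrome c, was at 9.26, 8.86 and 10.6 CPM in WT and at 14.9, 11.96 and 10.3 CPM in TET2KO, with overlap, and its log2 fold change of 0.37 ± 0.21 (SE) did not pass, though it did with the trend removed, at 1.49. mt-Co3 was at 42.4, 39.3 and 49.5 CPM in WT and at 22.4, 29.9 and 25.9 CPM in TET2KO. It was the one coding member that fell, by 0.75 ± 0.17 on the log2 scale (SE; edgeR adjusted p = 0.0087), and it turned to 0.35 with the trend removed. The nuclear copy of mt-Co3, Gm28437, had 862, 810 and 878 reads in WT and 349, 643 and 389 in TET2KO, and its log2 fold change was -1.52 ± 0.32 (SE; edgeR adjusted p = 0.0068).

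ATP synthase has a pair of mitochondrial subunits, both in its membrane part and both inside the copied stretch. mt-Atp8 was at 1.82, 1.80 and 1.96 CPM in WT and at 3.88, 2.80 and 2.54 CPM in TET2KO, without overlap, on 35 to 144 reads per library. Its log2 fold change was 0.73 ± 0.27 (SE; edgeR adjusted p = 0.042), and of the 6 fits that left out a library it passed in 1, that without TET2KO replicate 2. mt-Atp6 was at 6.38, 8.66 and 6.71 CPM in WT and at 14.4, 9.80 and 9.07 CPM in TET2KO, also without overlap, and its log2 fold change of 0.61 ± 0.25 (SE; edgeR adjusted p = 0.063) did not pass. With the length and GC trend removed mt-Atp6 passed, at 1.5. The genes share 43 bases.

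Nuclear copies were themselves tested where they passed the filter. Of 11 copies with at least 95% identity over at least 100 bases, 10 were tested, 2 rose and 1 fell. Among all genes tested, 33.4% rose and 29.4% fell. Gm28439, a copy of the first part of mt-Nd4, had 35, 36 and 36 reads in WT and 221, 73 and 144 in TET2KO (log2 fold change 1.33 ± 0.37, SE; edgeR adjusted p = 0.015). The other copies with a mean of at least 1 CPM did not pass: log2 fold changes were -0.13 for Gm13340, 0.18 for Gm13341, 0.04 for Gm10925, -0.50 for Gm29216, -0.35 for Gm28438 and -0.19 for Gm28661. Gm10222, the copy of mt-Nd4l, rose from 5 to 13 reads in WT to 23 to 52 in TET2KO (edgeR adjusted p = 0.041). It lies below 1 CPM and was named after its values were seen.

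Transfer RNAs carry amino acids to the mitochondrial ribosome. For the tRNAs whose counts stood out, the gene sequences are given with the anticodon in capitals, as located in 21 of the 22 tRNA genes: mt-Tf (phenylalanine), mt-Tv (valine) and mt-Tl1 (leucine), which flank the ribosomal RNA genes, and mt-Tm (methionine), just before mt-Nd2. mt-Tf, mt-Tv and mt-Tm were chosen after their values were seen.
mt-Tf, chrM:1-68: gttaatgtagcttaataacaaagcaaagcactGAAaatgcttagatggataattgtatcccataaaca
mt-Tv, chrM:1025-1093: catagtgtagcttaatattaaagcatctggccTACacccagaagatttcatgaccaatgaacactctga
mt-Tl1, chrM:2676-2750: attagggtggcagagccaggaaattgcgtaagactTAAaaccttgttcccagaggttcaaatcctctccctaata
mt-Tm, chrM:3845-3913: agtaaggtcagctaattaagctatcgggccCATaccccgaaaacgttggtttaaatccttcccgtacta

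The 3 tRNAs beside the ribosomal RNA genes all fell. mt-Tf was at 16.7, 17.6 and 25.3 CPM in WT and at 4.31, 11.9 and 6.88 CPM in TET2KO, a log2 fold change of -1.37 ± 0.37 (SE; edgeR adjusted p = 0.015). mt-Tv was at 37.0, 39.4 and 53.7 CPM in WT and at 13.1, 30.4 and 20.3 CPM in TET2KO, a log2 fold change of -1.03 ± 0.31 (SE). mt-Tl1 was at 336, 277 and 387 CPM in WT and at 171, 245 and 225 CPM in TET2KO, a log2 fold change of -0.64 ± 0.22 (SE; edgeR adjusted p = 0.033). In none of the 3 did the groups overlap. With the length and GC trend removed mt-Tf still passed at -1.08, while mt-Tv at -0.46 and mt-Tl1 at -0.14 did not. Leaving out WT replicate 3 or TET2KO replicate 3 ended the calls of all 3, and leaving out WT replicate 1 or TET2KO replicate 1 ended that of mt-Tl1. When libraries were scaled to their totals, 1 of all tested members was lower.

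Of the minus-strand tRNAs, mt-Tn (asparagine) and mt-Tc (cysteine), neighbours in the genome, also fell. mt-Tn was at 274, 240 and 377 CPM in WT and at 101, 201 and 173 CPM in TET2KO, a log2 fold change of -0.91 ± 0.30 (SE). mt-Tc was at 79.3, 65.0 and 104 CPM in WT and at 29.8, 50.4 and 53.0 CPM in TET2KO, a log2 fold change of -0.90 ± 0.27 (SE). No TET2KO library of either reached a WT library. mt-Ty (tyrosine), next in order, was at 44.03, 40.0 and 57.2 CPM in WT and at 24.3, 45.2 and 34.5 CPM in TET2KO, with overlap and without passing (-0.44 ± 0.25, SE). mt-Tp (proline) was at 362, 262 and 385 CPM in WT and at 155, 263 and 216 CPM in TET2KO, a log2 fold change of -0.67 ± 0.25 (SE; edgeR adjusted p = 0.049). It passed although TET2KO replicate 2 lay above WT replicate 2, and of the 6 fits that left out a library it passed in that without TET2KO replicate 2. Neither mt-Tn nor mt-Tc passed without WT replicate 1 or WT replicate 3, and mt-Tn did not pass without TET2KO replicate 3. With the length and GC trend removed mt-Tn still passed, at -0.46, while mt-Tc at -0.36 and mt-Tp at -0.28 did not.

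mt-Tm was the one tRNA that rose. It was at 7.29, 5.96 and 8.0 CPM in WT and at 20.5, 9.46 and 19.1 CPM in TET2KO, a log2 fold change of 1.21 ± 0.31 (SE; edgeR adjusted p = 0.012), next to 0.96 for mt-Nd2, which begins at the base after it. It did not pass without WT replicate 2. mt-Te (glutamate), which abuts mt-Nd6 on the minus strand, was at 79.8, 50.4 and 75.2 CPM in WT and at 157, 64.2 and 129 CPM in TET2KO, with overlap, and its log2 fold change of 0.77 ± 0.34 (SE; edgeR adjusted p = 0.078) did not pass. With the trend removed mt-Te passed, at 1.34. The 10 other tRNAs tested that did not pass had log2 fold changes from -0.86 (mt-Tt, on 7 to 15 reads) to 0.48 (mt-Tw), and with the trend removed mt-Ti at 0.43, mt-Tq at 0.60 and mt-Tw at 1.07 passed. Counting by gene does not separate cut tRNAs from uncut precursors.

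The lengths of the members matter for how these fold changes compare with those of other genes. Over the 32 tested members the fold change followed gene length with a Spearman rho of 0.46, and over the 13 coding members with 0.31, given as descriptions since the members share their libraries and precursors. The 4061 nuclear genes tested with a length of 300 to 2000 nt, close to that of most coding members, had a median log2 fold change of -0.91, with 268 higher and 2450 lower. With the trend of length and GC content removed, 11 coding members rose, 0 fell and 2 did not pass, with a median of 1.5, and mt-Nd5 was at 2.66. Among tRNAs 5 rose, 2 fell and 12 did not pass, and by then 46.2% of all genes were called. For tRNAs the trend rests on few genes: 57 of the genes tested were shorter than 200 nt, and 19 of these were the mitochondrial tRNAs themselves.

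Nuclear genes for subunits of the same complexes mostly fell. Of 75 nuclear genes for subunits of complexes I, III, IV and ATP synthase, 0 rose, 67 fell and 8 did not pass in the edgeR test, with a median log2 fold change of -1.44. Over all genes tested 33.4% were higher and 29.4% lower. Of the 4061 nuclear genes of 300 to 2000 nt, 268 were higher and 2450 lower. The falls numbered 32 of 36 in complex I, 8 of 9 in complex III, 14 of 14 in complex IV and 13 of 16 in ATP synthase. At an unadjusted p under 0.05 edgeR also had 0 higher, and DESeq2 called 0 higher. Ndufb9, an accessory subunit of complex I, went from 2974 ± 404 to 892 ± 385 CPM (SD, n = 3 each), a log2 fold change of -1.74. Cox4i1, a regulatory subunit of complex IV, went from 8633 ± 1243 to 2673 ± 1135 CPM (SD, n = 3 each), or -1.69. Uqcrc2, a core subunit of complex III, went from 2695 ± 154 to 1232 ± 400 CPM (SD, n = 3 each), or -1.13. Atp5b, the catalytic subunit of ATP synthase, was at 5696 ± 410 and 4868 ± 477 CPM (SD, n = 3 each) and did not pass at -0.23. With the trend removed 4 of the 75 rose and 46 fell, with a median of -0.38, and Atp5b turned to 0.41 on log2(TPM + 1).

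**Figure D4:**
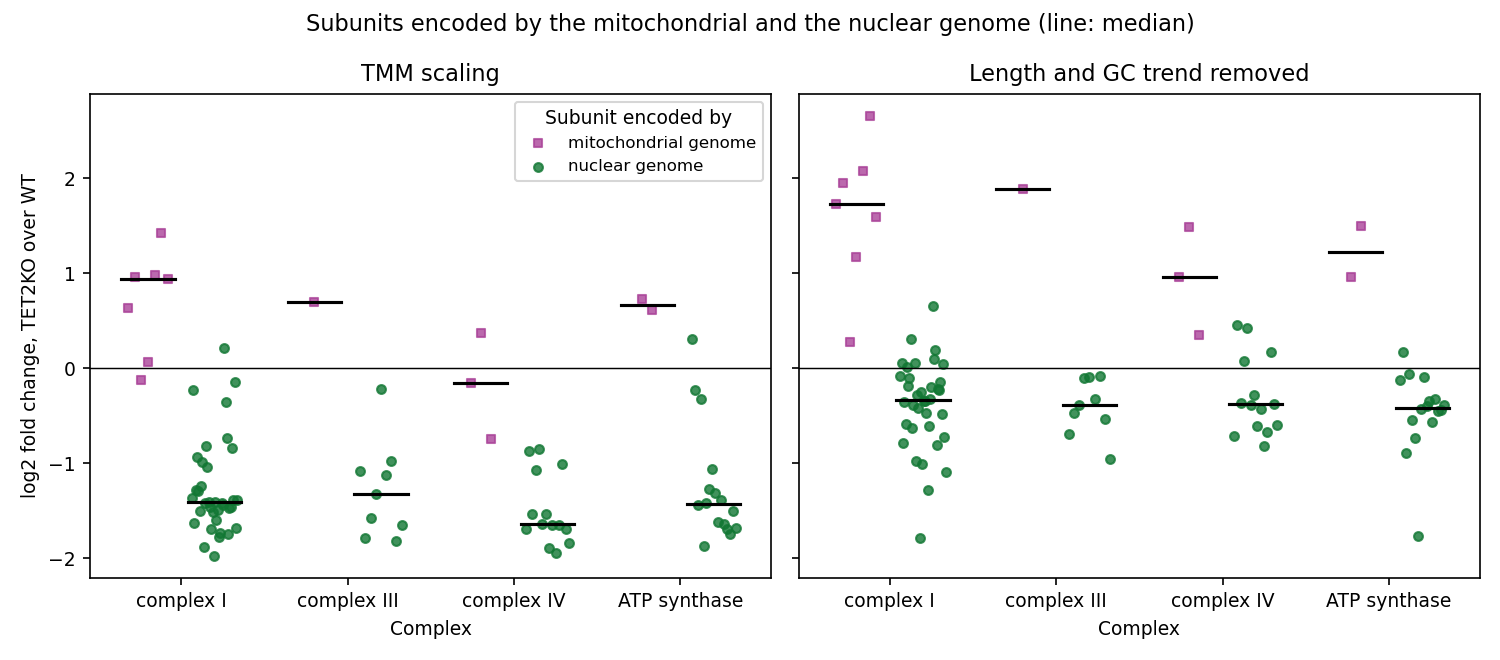
Log2 fold change, TET2KO over WT, of subunits encoded by the mitochondrial (squares) and the nuclear genome (circles) in each complex, with TMM scaling on the left and the length and GC trend removed on the right; black lines are medians. On the left the medians of the nuclear subunits lie between -1.64 and -1.32, and that of the mitochondrial complex I subunits at 0.94.

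The balance of the genomes can be read within a library, where no scaling between libraries enters. The trend of fold changes with transcript length is not removed from these ratios, and its part in them was not tested. For complex I there were 0.732, 0.812 and 0.682 mitochondrial reads per nuclear read in WT and 5.62, 1.87 and 3.76 in TET2KO. For complex III the ratio was 0.808 ± 0.0974 in WT and 3.31 ± 1.31 in TET2KO, and for complex IV it was 2.12 ± 0.222 and 6.16 ± 1.77 (SD, n = 3 each). In all 3 the groups did not overlap (two-sided exact permutation test, p = 0.1 each), and TET2KO replicate 2 again lay between WT and the other TET2KO libraries.

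Nuclear genes that maintain and express the mitochondrial genome changed in both directions, and which direction had more members depended on the scaling. Of 71 genes in 4 lists (Tfam is in 2 of them), 13 rose, 34 fell and 24 did not pass with TMM scaling, against 33.4% higher and 29.4% lower over all genes. There were 13 higher and 23 lower with the length and GC trend removed, 19 and 17 with libraries scaled to their totals, and 23 and 13 on log2(TPM + 1). In that order, 46.2%, 61.3% and 62.6% of all genes were called. The median log2 fold change of all genes was -0.03, 0.47 and 0.41, so all genes shifted with the setting too. With TMM scaling, replication and maintenance split evenly, with 5 higher and 5 lower of 15. Of the 11 transcription genes 1 rose and 9 fell, with a median of -1.22. Of 26 genes of RNA processing and modification 2 rose and 15 fell, and of 20 genes of mRNA stability, polyadenylation and decay 5 rose and 6 fell. Without WT replicate 3 the falls over the 71 genes numbered 21 and the rises 8, and without TET2KO replicate 3 the falls numbered 16.

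Polrmt, the mitochondrial RNA polymerase, was the one transcription gene that rose, from 3.45, 4.62 and 3.86 CPM in WT to 24.2, 9.63 and 18.6 CPM in TET2KO. Its log2 fold change was 2.13 ± 0.35 (SE; edgeR adjusted p = 0.0065), and with the length and GC trend removed it was 0.26 and did not pass. Tfam, which packages mitochondrial DNA and starts its transcription, fell from 82.6, 81.2 and 94.7 CPM to 42.3, 63.4 and 51.6 CPM, by 0.72 ± 0.19 on the log2 scale (SE), and did not pass without WT replicate 3, without TET2KO replicate 3 or with libraries scaled to their totals. Tefm, the elongation factor, fell from 93.6, 83.7 and 103 CPM to 17.95, 46.4 and 27.0 CPM, by 1.62 ± 0.33 (SE). For Tfb2m, an initiation factor, the log2 fold change was -0.42 ± 0.18 (SE) and did not pass, and with the trend removed it turned to 0.33. Mterf1b fell by 1.88 ± 0.34 (SE) at 0.485 to 3.13 CPM. It belongs to the transcription terminators and has a close paralog, Mterf1a, so its reads are uncertain.

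Polg, the DNA polymerase of mitochondria, rose from 14.9, 17.5 and 15.4 CPM to 46.9, 29.0 and 43.5 CPM, a log2 fold change of 1.32 ± 0.21 (SE) that turned to -0.42 with the trend removed. Twnk, the replicative helicase, rose from 13.8 ± 1.82 to 23.3 ± 4.34 CPM (SD, n = 3 each), at 0.75 ± 0.20 on the log2 scale (SE). With the trend removed Twnk was at 0.01 and did not pass, and its call ended when either WT replicate 2 or 3, or TET2KO replicate 3, was left out. Lrpprc and Slirp form a complex that stabilises mitochondrial messengers, and they moved apart. Lrpprc rose from 68.7, 61.9 and 62.3 CPM to 149, 91.4 and 127 CPM, a log2 fold change of 0.93 ± 0.21 (SE). Slirp fell from 126, 106 and 132 CPM to 26.4, 54.3 and 34.96 CPM, by 1.66 ± 0.27 (SE). Elac2, which cuts the 3′ ends of tRNAs from precursors, rose by a log2 fold change of 1.37 ± 0.26 (SE) from 6.36 ± 0.477 to 16.5 ± 4.99 CPM (SD, n = 3 each). Mtpap, the poly(A) polymerase of mitochondria, did not pass at -0.01 ± 0.18 (SE), with levels of 17.97 ± 1.31 and 17.9 ± 3.02 CPM (SD, n = 3 each), and turned to 0.58 on log2(TPM + 1).

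In the authors' deposited table of this comparison, 32 members had an adjusted p, and 14 of them were under 0.05, 7 higher and 7 lower. The share of all genes under 0.05 in that table was not counted here, and in the edgeR fit it was 62.9%. The authors' deposited table of significant genes listed 6254 genes and held 4 members: mt-Nd5 at a log2 fold change of 1.37, mt-Tm at 1.15, mt-Tv at -1.08 and mt-Tf at -1.42. The smallest absolute value among all genes in the authors' deposited table of significant genes was 1.00, and mt-Nd2 at 0.90 and mt-Nd4 at 0.93 lay just below it in the authors' deposited table of the comparison.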

How the data were processed

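The authors deposited 2 gene tables of the same 6 libraries, one of unnormalized whole counts and one of TPM values. The authors' comparison table holds log2 fold changes, p-values and adjusted p-values, and a normalised signal per library. Per the submitters' processing notes, the builds were GRCm38 and mm10, and the tools included STAR 2.5.2b, Trimmomatic 0.36, Subread 1.5.2 with featureCounts, and DESeq2. Annotation release, strand setting and the handling of multi-mapped reads were not given in the sources used here. Library names in the labels tied each column to its sample, with 0 columns unmatched. Symbols are those of the count table, where 174 of 49315 rows have none.

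Counts were fitted over all genes with edgeR 4.0.16 (R 4.3.3; TMM, filterByExpr, robust quasi-likelihood F-test, group as the only term), with Benjamini-Hochberg adjustment at 0.05. SE was obtained by dividing the size of the log2 fold change by the square root of F. Log2 fold changes are TET2KO over WT, and CPM use the TMM factors. Shares were compared with two-sided exact permutation tests (scipy 1.17.1). Intervals and the limit for 0 reads (3 counts) cover counting error only, since reads are not independent molecules. The labels call the 3 samples of a group biological replicates, and counts of every pair within a group differed by more than sampling noise. Copies were found with BLAST 2.17.0 among GENCODE M21 transcripts (at least 95% identity over at least 100 bases), to which all 35 members matched. The length and GC trend was fitted per library over genes with mgcv 1.9.3 and removed as offsets. On counts simulated from the mean levels and spread of these data, 200 genes were changed. Among 14207 genes tested, the plain test called 24% of log2 changes of 1 and 96% of those of 2, with 6 unchanged genes called. With the trend removed the values were 75% and 100%, with 8 unchanged genes called. In the data 62.9% of genes tested were called, far more than were changed in the simulation, so these rates do not carry over to the members.

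Members and gene lists were chosen with earlier results of these data known. Per-library values are given for the 13 coding members and the 6 tRNAs with the highest mean CPM (mt-Tp, mt-Tl1, mt-Tn, mt-Te, mt-Tc and mt-Ty). Nuclear genes named, some by mean or fold change only, are of 4 kinds. From the 4 upkeep and expression lists they are 10 set genes and the 2 genes with the smallest p in each direction. The others are the most abundant nuclear subunit of each complex, and copies with a mean of at least 1 CPM. Other marker lists were summed: endothelial markers were at 2256 CPM in WT and 1665 in TET2KO (11 higher and 4 lower of 16), fibroblast at 2142 and 2149 (4 and 6 of 12), smooth muscle and pericyte at 2333 and 1756 (5 and 3 of 10), macrophage at 770 and 363 (2 and 2 of 10), and erythroid transcripts at 3947 and 373 (0 and 5 of 5 tested). The shares over all genes tested were 33.4% higher and 29.4% lower. Alternatives were DESeq2 1.42.0, other scalings, no filter, limma 3.58.1 on log2 TPM, a replicate block and leaving out each library.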

Additional observations from a re-analysis of the deposited data

How the results depend on the processing

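Over the 17 alternatives, the 32 tested members gave 544 log2 fold changes. Of these 409 kept direction and side of the threshold, 81 lost and 40 gained the call, and 14 turned sign while past the test in one of the fits. Scaling shifted all genes together: the median log2 fold change of all genes was 0.05 with TMM, 0.47 with total library size, -0.22 with scaling by mitochondrial reads, and 0.41 and 0.64 on log2(TPM + 1) and log2(TPM + 0.1). Members numbered 13 higher and 1 lower with total library size, 4 higher with scaling by mitochondrial reads, 19 and 1 on log2(TPM + 1), 21 and 1 on log2(TPM + 0.1), 16 and 2 with the length and GC trend removed, and 15 and 2 with the trend removed and a replicate block. In that order, the share of all genes called was 61.3%, 61.1%, 62.6%, 63.7%, 46.2% and 40.0%. Leaving out 1 library gave 2 to 11 higher and 1 to 8 lower, with fewest calls without WT replicate 3 (3 and 1) and 2 higher without WT replicate 1 or 2. Over all genes, the fits that left out 1 library called from 41.2% (without WT replicate 3) to 75.1% (without TET2KO replicate 2). Of the 15 calls, 14 were kept with RLE size factors and DESeq2, 15 with scaling by nuclear genes, 13 without a filter, 11 with scaling by mitochondrial reads, 10 with the trend removed and 9 with total library size.

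Upkeep and expression genes numbered 19 higher and 17 lower with total library size, 8 higher with scaling by mitochondrial reads, 23 higher and 13 lower on both TPM scales, and 18 lower with the trend removed and the block. The shares of all genes called in these settings are those given above. Leaving out 1 library gave 8 to 15 higher and 16 to 44 lower. Nuclear subunits numbered 2 higher with total library size, 6 on both TPM scales, 4 with the trend removed, and 1 higher and 28 lower with trend and block. On log2(TPM + 1) and log2(TPM + 0.1), mt-Co1 turned to 0.48, mt-Nd3 to 0.49, mt-Tl2 to 0.53, Atp5b to 0.41, and Mtpap to 0.58 and 0.61; mt-Tq turned to 0.67 and mt-Ta to 0.61 on the second. With the trend removed, without and with the block, mt-Co1 turned to 0.97 and 0.95, mt-Co3 to 0.35 in both, Polg to -0.42 and -0.47, Mtpap to 0.70 and 0.69; mt-Tq turned to 0.60 and Tfb2m to 0.33 without the block, and mt-Ta to 0.42 with it. The cause was not tested. The minus-strand share turned to -2.54 points on TPM, and the difference in the mt-Co2 share ranged from -4.6e-05 points without TET2KO replicate 1 to 0.0015 without TET2KO replicate 3. With a replicate block alone 5 members were higher, and 7618 genes were called in place of 9037. Deviations of same-numbered libraries correlated at 0.04, -0.23 and -0.01, so the numbers were not taken to pair animals.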
